A study of Homo sapiens with 15 samples.

Results

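Superoxide dismutases, catalase and glutathione peroxidases are the enzymes that remove superoxide and peroxides from cells. The account covers 8 genes taken from the deposited table by symbol, SOD1, SOD2, SOD3, CCS, CAT, GPX1, GPX3 and GPX4, out of 63241 genes in all. Of the 8 genes, 7 passed the filter on low values, reaching 1 TPM in 3 or more of 15 libraries, and were tested together with all other genes that passed, 12950 in total. SOD3 did not pass and is described by its values. TPM is the share of all transcripts that a gene holds, corrected for gene length.

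Superoxide dismutases turn superoxide into hydrogen peroxide, SOD1 with copper and zinc in the cytosol, SOD2 with manganese in the mitochondrial matrix and SOD3 outside the cell. Hydrogen peroxide is then broken down by catalase in peroxisomes or reduced by glutathione peroxidases, many of which are selenium enzymes that draw electrons from glutathione. GPX4 differs from its relatives in reducing lipid hydroperoxides inside membranes, and the liver, which oxidises fatty acids in mitochondria and peroxisomes, is known for high levels of these enzymes.

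RNA sequencing of poly(A) RNA was done on 15 samples labelled as the human hepatoma line HepG2, in 5 groups of 3 replicates. FFA cultures were given free fatty acids at 500 µM. FCL, FCM and FCH cultures received the same fatty acids with 25, 50 and 100 µM cyanidin-3-rutinoside (C3R), an anthocyanin, and NC cultures were the blank control without either. The question put by the design is how C3R lowers lipid in cells loaded with fatty acids. The labels call the replicates biological and say nothing of separate cultures or days, so the p-values reflect only how far these libraries vary. In bulk RNA, fewer cells of a kind and less RNA per cell cannot be told apart.

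The label and the transcripts did not match. Of 10 marker genes of hepatocytes and HepG2, 5 passed the filter. Albumin (ALB) lay between 0.0947 and 1.67 TPM over the 15 libraries. Alpha-fetoprotein (AFP) reached at most 0.13 TPM, apolipoprotein B (APOB) 0.09 TPM, transthyretin (TTR) 0.32 TPM, fibrinogen beta (FGB) 0.41 TPM and the hepatocyte factor HNF4A 0.64 TPM. APOA1, SERPINA1 and TF stood between 2.71 and 14.7 TPM, and only the epithelial keratin KRT18, which is not particular to hepatocytes, was high, at 1218 to 2492 TPM. The keratin KRT7, listed as a cholangiocyte marker, reached 1626 to 2781 TPM, while its list partners SOX9, CFTR and EPCAM stayed at or below 0.4 TPM. ALB, AFP, APOB, TTR and FGB, which encode secreted proteins, were thus at or below 1.67 TPM in every library, with APOA1, SERPINA1 and TF somewhat higher, and all values below are from cultures labelled HepG2. The summed level of the hepatocyte list, nearly all KRT18, was 1247 to 1397 TPM in FFA and 2298 to 2513 TPM in NC, and its part in the results was not tested. The 6 leukocyte markers together reached at most 0.88 TPM in any library and the 5 endothelial markers at most 0.94 TPM. Of the 6 stellate cell and fibroblast markers 4 passed the filter, and together they reached 42.8 to 77.4 TPM. COL1A1 lay between 30.8 and 62.8 TPM and ACTA2 between 7.97 and 15.8 TPM, while COL1A2 reached at most 0.38 TPM and LRAT was listed at 0 in every library.

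From 11268 to 12293 genes per library were at 1 TPM or more, and genes of the mitochondrial genome took between 6.03% and 12.0% of the TPM. TPM hold no sequencing depth, so the depth is unknown and no counting error can be given. The table carried an adjustment, mainly of FCH replicate 3, that no label mentions. All other libraries were shifted too, by an amount per gene that they share, so low listed TPM of the adjusted genes hold this offset. FCH replicate 3 kept a median of 39.1% of its deviation from the other FCH libraries. The adjustment covered 12773 genes that include 7 of the 8 members, so the spread within FCH is smaller than in the unadjusted values. Levels are given in TPM. Changes are differences of log2(TPM + 1), which understate changes of genes at low TPM, with their standard error (SE) from limma and p-values adjusted by Benjamini-Hochberg over the 12950 genes. Genes were called when the adjusted p fell under 0.05.

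The upstream sequences of SOD2, CAT and GPX1 are printed because these are the members that were called higher in FFA than in NC. Each run is the 250 bases before an annotated start, from RefSeq on GRCh38.p14, written 5′ to 3′ on the strand of the gene. Capitals mark GC boxes (GGGCGG on either strand) and CCAAT boxes (CCAAT on either strand). SOD2 has 4 such windows, of which the first listed is shown, chr6:159693242-159693491 on the minus strand. CAT is at chr11:34438684-34438933 on the plus strand and GPX1 at chr3:49358354-49358603 on the minus strand.
SOD2: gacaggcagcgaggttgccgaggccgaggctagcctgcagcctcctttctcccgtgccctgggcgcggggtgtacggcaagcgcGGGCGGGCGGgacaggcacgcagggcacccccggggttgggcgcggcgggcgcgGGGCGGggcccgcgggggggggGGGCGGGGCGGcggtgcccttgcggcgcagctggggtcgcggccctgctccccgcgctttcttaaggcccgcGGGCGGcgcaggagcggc
CAT: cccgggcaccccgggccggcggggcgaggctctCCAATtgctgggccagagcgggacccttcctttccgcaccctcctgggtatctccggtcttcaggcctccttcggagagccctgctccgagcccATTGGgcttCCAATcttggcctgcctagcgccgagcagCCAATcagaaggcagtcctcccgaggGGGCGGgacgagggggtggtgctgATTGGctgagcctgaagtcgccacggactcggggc
GPX1: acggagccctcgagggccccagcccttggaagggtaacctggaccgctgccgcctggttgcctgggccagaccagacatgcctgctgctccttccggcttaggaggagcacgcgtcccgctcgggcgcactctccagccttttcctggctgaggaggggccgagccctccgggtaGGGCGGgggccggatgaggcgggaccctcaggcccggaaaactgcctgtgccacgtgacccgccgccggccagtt

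The SOD2 window shown held 6 GC boxes and no CCAAT box, counting overlapping matches. SOD2 windows 2, 3 and 4, not printed, held 1, 4 and 1 GC boxes and 1, 0 and 3 CCAAT boxes. The CAT window held 1 GC box and 5 CCAAT boxes, and the GPX1 window 1 GC box and no CCAAT box. Over all 35116 windows of the same length, 42.6% held a GC box and 32.0% a CCAAT box. None of the windows of the 7 members with one held a TATA box (TATAAA, 10.7% of all windows), a direct repeat of the PPAR kind (AGGTCA, any base, AGGTCA, 0.0171%), a FOXO motif (TGTTTAC, 2.98%) or a kappa B motif (8.04%), on either strand. The core of the antioxidant response element (TGACNNNGC, 10.9%) occurred once, upstream of CCS. These matches describe letters in a short window and are neither sites nor causes.

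Levels of the 8 genes differed by orders of magnitude. GPX1 and GPX4 were the most abundant in every group and together held 85.9 ± 0.263% of the summed TPM of the 8 genes in FFA and 81.1 ± 1.41% in NC (SD, n = 3 each). GPX1 lay above 98.7% of the tested genes in mean level, GPX4 above 98.3%, SOD1 above 93.7%, SOD2 above 82.6%, CCS above 73.1%, CAT above 66.8% and GPX3 above 14.4%. In FFA the order by mean TPM was GPX1, GPX4, SOD1, SOD2, CAT, CCS, GPX3 and SOD3, and only the neighbours CAT and CCS had overlapping ranges. In FCL the same order held with CCS before CAT, again overlapping. In FCM and FCH, CCS stood above CAT without overlap. In NC the order was GPX1, GPX4, SOD1, CCS, SOD2, CAT, GPX3 and SOD3, where GPX1 and GPX4 overlapped and SOD2 lay below CCS.

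**Figure D1:**
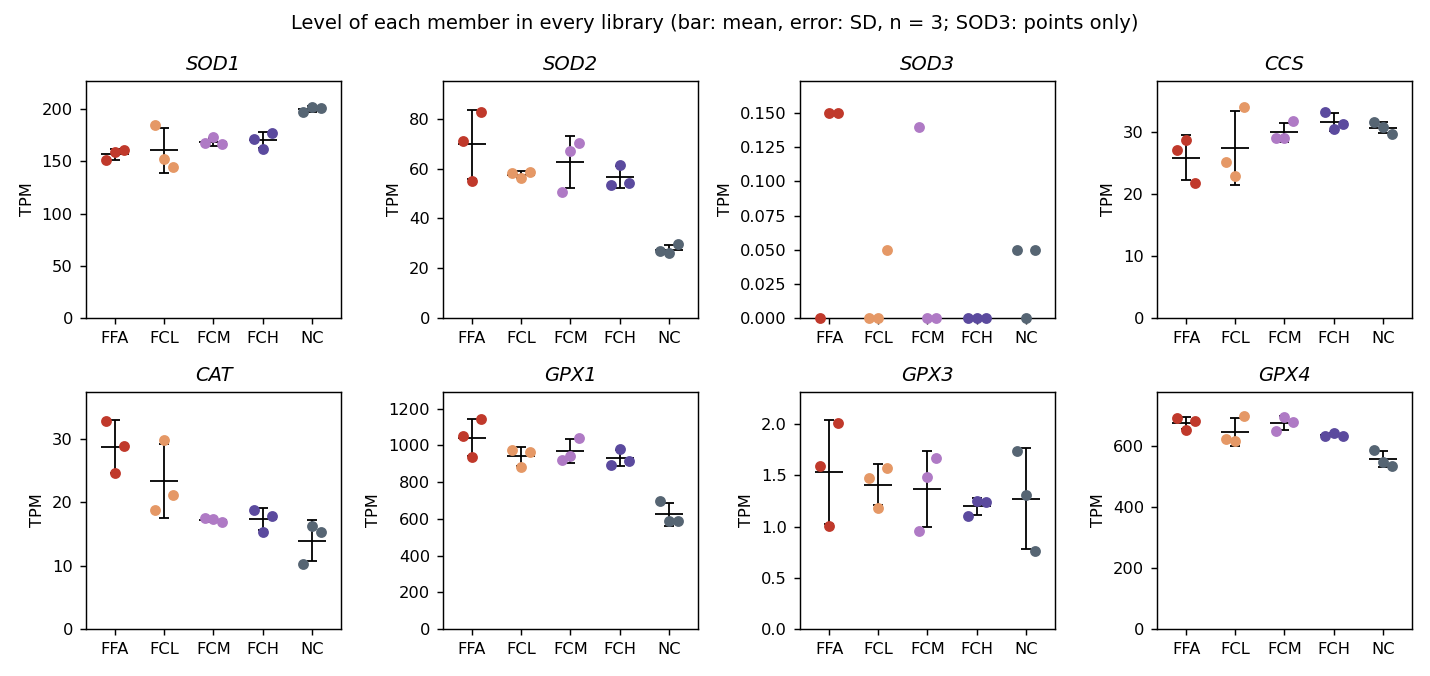
Level in TPM (vertical axis, from 0) of each of the 8 genes in the 5 groups FFA, FCL, FCM, FCH and NC. Points are the 3 libraries of a group, the bar is their mean and the error bar the SD, and for SOD3 the points alone are drawn. All 12 libraries given fatty acids lie above the 3 NC libraries for SOD2, GPX1 and GPX4 and below them for SOD1. The share of all tested genes placed in this way was not computed.

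FFA set against NC addresses the fatty acids without C3R. SOD2, CAT and GPX1 were higher in FFA and SOD1 was lower, so that 4 of the 7 tested members were called. Over all tested genes 7.37% were called in this comparison, 5.47% higher and 1.91% lower. The members' median log2 change was 0.28, against 0.06 over all tested genes. The libraries of the groups did not overlap for 4 members that were higher (19.7% of all genes were so placed) and 2 that were lower (9.95%). Genes of the mitochondrial genome took 7.33% to 10.3% of the TPM in FFA and 10.8% to 12.0% in NC, and with them left out the same 4 members were called.

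SOD2, the mitochondrial dismutase, had 71.2, 55.1 and 82.8 TPM in FFA, against 27.0, 26.0 and 29.6 TPM in NC. Every FFA library was well above every NC library. The log2 change was 1.29 (SE 0.15, limma adjusted p = 8.96e-05), a ratio of means of 2.53. The call held in every alternative fit, with log2 changes between 1.16 and 1.45 when single libraries were left out. SOD2 shares its locus with WTAP, ACAT2 and SOD2-OT1, and the use of strand in counting is not stated. ACAT2, which overlaps it, averaged 55.7 ± 4.73 TPM in FFA and 26.3 ± 2.74 TPM in NC (SD, n = 3 each), so reads of the pair may not be fully separable.

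CAT, the peroxisomal catalase, had 32.9, 24.6 and 28.9 TPM in FFA, against 10.2, 16.2 and 15.2 TPM in NC. The lowest FFA library was above the highest NC library. On the log2 scale CAT changed by 1.01 (SE 0.19, limma adjusted p = 0.00396), a ratio of means of 2.07. NC replicate 1 was the lowest of the 15 libraries, and with any single library left out the change stayed between 0.82 and 1.13 and the call held.

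GPX1, the abundant cytosolic and mitochondrial glutathione peroxidase, had 1049, 937 and 1143 TPM in FFA, against 696, 590.3 and 585 TPM in NC. The lowest FFA library was far above the highest NC library. The log2 change was 0.74 (SE 0.10, limma adjusted p = 0.000408), a ratio of means of 1.67. The processed pseudogene GPX1P1, a near copy, was listed at 64.5 ± 8.46 TPM in FFA and 49.1 ± 3.96 TPM in NC (SD, n = 3 each), so reads may be divided between the pair. With the TPM of both summed the change was 0.72 (adjusted p = 0.00054 by limma).

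SOD1, the cytosolic dismutase, had 151, 159 and 161 TPM in FFA, against 197, 202 and 201 TPM in NC. The groups were tight and did not overlap. The log2 change was -0.35 (SE 0.10, limma adjusted p = 0.0425). That call lay close to the threshold. It was lost when any single FFA, NC or FCH library or FCM replicate 1 was left out, with adjusted p-values of up to 0.169 by limma, and also under median-of-ratios rescaling and with the adjustment of FCH replicate 3 undone. The log2 change itself stayed between -0.37 and -0.32 with single libraries left out.

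GPX4, the peroxidase of membrane lipids, had 691, 652 and 683 TPM in FFA, against 587, 547 and 535 TPM in NC. All 3 FFA libraries were above all 3 NC libraries. The log2 change of 0.28 (SE 0.08) did not pass, with a limma adjusted p of 0.0561, and it did pass in a few alternatives, among them the fits without FCL replicate 2 and without FCM replicate 3. CCS, the chaperone that loads copper into SOD1, had 27.1, 28.8 and 21.8 TPM in FFA, against 31.6, 30.9 and 29.8 TPM in NC. FFA was lower without overlap, and the log2 change of -0.25 (SE 0.14) did not pass at a limma adjusted p of 0.346.

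GPX3 and SOD3, the secreted members, were barely present. GPX3, the plasma peroxidase, had 1.59, 1.00 and 2.01 TPM in FFA, against 1.74, 1.31 and 0.763 TPM in NC, and the groups overlapped (log2 change 0.16, SE 0.21, adjusted p = 0.714 by limma). SOD3 was listed at 0, 0.15 and 0.15 TPM in FFA, 0, 0 and 0.05 TPM in FCL, 0.14, 0 and 0 TPM in FCM, 0 in all 3 FCH libraries, and 0.05, 0 and 0.05 TPM in NC. No level of SOD3 was near the filter.

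**Figure D2:**
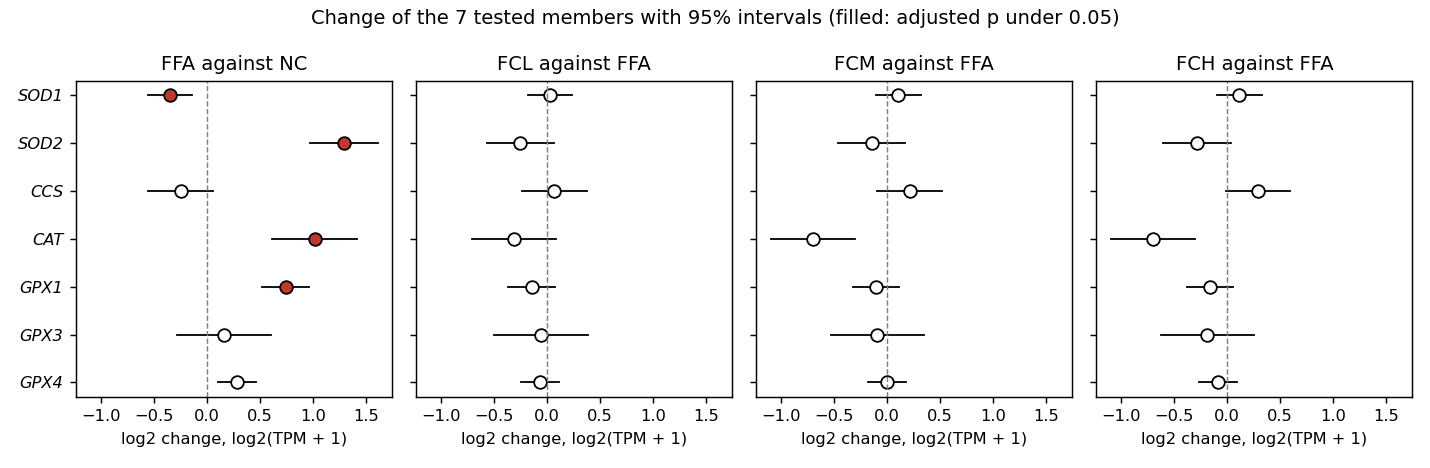
Change of the 7 tested members on the log2(TPM + 1) scale (horizontal axis) in FFA against NC and in FCL, FCM and FCH against FFA. Points are the limma estimates, lines their 95% intervals, and filled points passed an adjusted p of 0.05. SOD2 at 1.29, CAT at 1.01, GPX1 at 0.74 and SOD1 at -0.35 are filled in FFA against NC and none is filled in the C3R comparisons, where CAT lies farthest from 0 at 50 and 100 µM.

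The balance between members was compared within libraries, where a common scaling factor cancels in shares and ratios but not in the sum of the 8 genes. SOD2 made up 30.6 ± 4.29% of the summed TPM of SOD1 and SOD2 in FFA and 12.1 ± 0.72% in NC (SD, n = 3 each), with 25.8% as the lowest FFA and 12.8% as the highest NC library. GPX1 stood at 1.54 ± 0.119 times GPX4 in FFA and 1.12 ± 0.0582 times in NC. The 8 genes together summed to 2001 ± 134 TPM in FFA and 1454 ± 83.7 TPM in NC. None of these 3 quantities overlapped between FFA and NC, and each exact permutation test (two-sided, 20 regroupings) gave p = 0.1, the smallest that 3 against 3 libraries allow. SOD1 to its chaperone CCS was 6.14 ± 1.06 in FFA and 6.51 ± 0.265 in NC (exact permutation p = 0.6), and CAT to SOD2 was 0.419 ± 0.0613 in FFA and 0.506 ± 0.124 in NC (exact permutation p = 0.4). Both ranges overlapped.

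**Figure D3:**
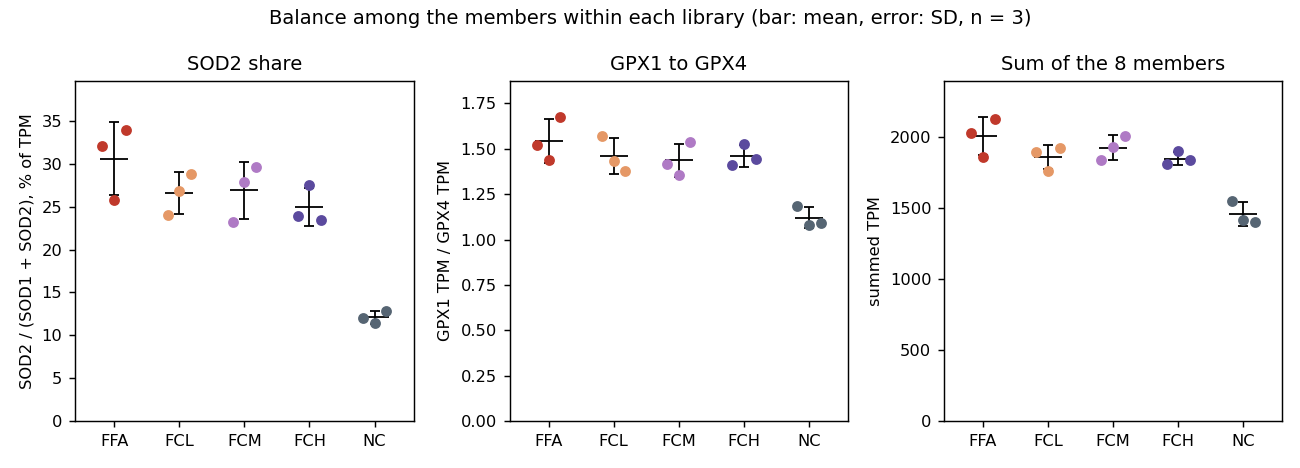
SOD2 as a percentage of SOD1 plus SOD2 TPM, GPX1 TPM over GPX4 TPM, and the summed TPM of the 8 genes (vertical axes, from 0) in the groups FFA, FCL, FCM, FCH and NC. Points are libraries, bars means and error bars SD (n = 3). The SOD2 share averages 30.6% in FFA and 12.1% in NC, and the C3R groups lie between 25.0% and 27.0%.

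The comparisons of FCL, FCM and FCH with FFA ask what C3R changed under the fatty acids. No member was called at any dose, where 0.00772% of all tested genes were called in FCL, 1.9% in FCM and 0.193% in FCH. At an unadjusted p under 0.05 there were 0 members in FCL, and CAT alone in FCM and in FCH, against 5.15%, 19.1% and 15.0% of all genes. The 3 comparisons share the FFA libraries with each other and with the comparison of FFA with NC, so they are not independent. The members' median log2 changes were -0.07, -0.09 and -0.16, against -0.01, -0.07 and -0.07 over all tested genes.

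CAT was the member farthest from its FFA level. It had 18.8, 29.9 and 21.2 TPM in FCL, 17.5, 17.3 and 16.9 TPM in FCM and 18.8, 15.4 and 17.8 TPM in FCH, against 32.9, 24.6 and 28.9 TPM in FFA. FCM and FCH lay wholly below FFA, while FCL replicate 2 was within the FFA range. The log2 change was -0.31 in FCL (SE 0.19, adjusted p = 0.901), -0.70 in FCM (SE 0.19, adjusted p = 0.0623) and -0.70 in FCH (SE 0.19, adjusted p = 0.109), all by limma. Groups without overlap and lower than FFA were found for 19.4% of all tested genes in FCM, where CAT was the 1 such member, and for 22.4% in FCH, where CAT and GPX4 were the 2. The slope of CAT over the 4 doses, from 0 in FFA, was -0.69 per 100 µM (SE 0.18, limma adjusted p = 0.0975), in a test that called 0.371% of all genes and no member.

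Whether CAT passed depended on the fit. In FCM it was called with median-of-ratios rescaling (-0.59, adjusted p = 0.0191 by limma), with quantile normalization, with array weights, and without NC replicate 1 or FCL replicate 2. In FCH it was called with the same 2 scalings, with array weights, in a fit on the compared groups alone and with GC and length trends removed. The libraries also differed in their trend with GC content. The rank correlation across genes between GC content and a library's deviation from the gene means ran from 0.299 to 0.608 in FCM and from 0.0501 to 0.339 in FCH, against -0.411 to -0.208 in FFA. It ran from -0.265 to 0.406 in FCL and from -0.511 to -0.0297 in NC, so libraries of 1 group also differed widely. The CAT transcripts have a median GC content of 45.2%, below those of the other members. With each library's trend over GC content and length removed, the change of CAT was -0.39 in FCM (adjusted p = 0.131 by limma) and -0.54 in FCH (adjusted p = 0.0426 by limma).

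For the other members, the intervals of the difference from FFA give the range of change that these libraries allow. SOD2 had 58.4, 56.0 and 58.4 TPM in FCL, 50.6, 67.2 and 70.1 TPM in FCM and 53.6, 61.5 and 54.2 TPM in FCH, each group overlapping FFA. Its log2 change in FCH was -0.28, with a 95% interval of -0.60 to 0.04. GPX1 had 978, 882 and 964 TPM in FCL, 919.7, 943 and 1042 TPM in FCM and 894, 981 and 917 TPM in FCH, which also overlapped FFA. Its 95% interval in FCH was -0.38 to 0.06. A p that misses the threshold does not show that the levels are alike.

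SOD1 had 185, 152 and 144 TPM in FCL, 167, 173 and 166 TPM in FCM and 171, 162 and 177 TPM in FCH, and CCS had 25.2, 23.0 and 34.2, then 29.1, 29.1 and 31.8, then 33.3, 30.5 and 31.4 TPM in the same groups. Both genes lay above FFA without overlap in FCM (4.53% of all genes) and FCH (11.0%), with log2 changes of 0.11 and 0.12 for SOD1 and 0.21 and 0.29 for CCS, none called. The CCS slope was 0.30 per 100 µM (SE 0.14, adjusted p = 0.318 by limma). CCS was at its highest of the 15 libraries in FCL replicate 3, at 34.2 TPM. The median GC content of its transcripts is 60.9%. The rank correlation with GC content was 0.406 in FCL replicate 3 and 0.608 in FCM replicate 3, where CCS had 31.8 TPM. With each library's trend over GC content and length removed, CCS was not called against FFA in FCM or FCH. That fit was 1 of 12 alternatives other than leaving out a library. Over these the log2 change of CCS ran from 0.08 to 0.32 in FCM and from 0.17 to 0.37 in FCH. A part of GC content in the CCS levels was not tested beyond that fit. GPX4 had 623, 615 and 698 TPM in FCL, 650.2, 694 and 678 TPM in FCM and 633, 643 and 634 TPM in FCH. In FCH all libraries lay below FFA, with a log2 change of -0.08 (SE 0.08, limma adjusted p = 0.695). GPX3 lay between 0.953 and 1.67 TPM over the 9 C3R libraries, within the FFA range apart from FCM replicate 1.

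Set against NC, SOD2 and GPX1 were called higher in all 3 C3R groups. FCL had 3 members called, SOD2 (1.04), CAT (0.70, adjusted p = 0.0288 by limma) and GPX1 (0.60), all higher, where 9.07% of all genes were called and 6.51% higher. FCM had 3, SOD2 (1.15), GPX1 (0.64) and GPX4 (0.28, adjusted p = 0.0414 by limma), where 13.0% were called and 6.34% higher. FCH had 2, SOD2 (1.01) and GPX1 (0.58), where 5.0% were called and 3.02% higher. These comparisons share the NC libraries. The CAT call in FCL was lost without FCL replicate 2, FCL replicate 3 or NC replicate 1. The GPX4 call in FCM was kept only without NC replicate 1 or without an FCL library, and was lost when any other library was left out. When the libraries that the labels number 12 to 15 were given a term of their own (FCM replicate 3 and the 3 FCH libraries), neither SOD2 (0.75, adjusted p = 0.226 by limma) nor GPX1 (0.42, adjusted p = 0.297 by limma) was called in FCH. That term is separated from FCH by FCM replicate 3 alone, so the term and the group can hardly be told apart. Over all tested genes it cut the calls in FCH against NC from 648 to 54. GPX1 also missed the threshold in FCL under median-of-ratios rescaling (adjusted p = 0.0592 by limma) and in FCH with GC and length trends removed (0.0525), and GPX4 in FCM with these trends removed changed by 0.06 (adjusted p = 0.742 by limma).

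CAT against NC was 0.32 in both FCM and FCH (SE 0.19, limma adjusted p of 0.275 and 0.368). Its levels in these groups, 16.9 to 17.5 TPM in FCM and 15.4 to 18.8 TPM in FCH, stood next to 10.2 to 16.2 TPM in NC, overlapping in FCH. SOD1 lay below NC without overlap in FCL, FCM and FCH (8.03%, 16.0% and 15.6% of all genes did so), with log2 changes of -0.32, -0.24 and -0.23 that were not called. In FCL its limma adjusted p was 0.0526, and SOD1 was called there in 6 of 12 alternatives other than leaving out a library and in 2 of the 15 fits without a single library, those without FCL replicate 1 and without FCM replicate 3. Over the 12 libraries given fatty acids SOD1 lay between 144 and 185 TPM, against 197 to 202 TPM in NC. SOD2 lay between 50.6 and 82.8 TPM, against 26.0 to 29.6 TPM in NC, GPX1 between 882 and 1143 TPM, against 585 to 696 TPM, and GPX4 between 615 and 698 TPM, against 535 to 587 TPM. How many of all tested genes kept the 12 libraries wholly apart from NC was not computed, so these ranges have no background share. Groups higher than NC without overlap made up 16.7% of all genes in FCL, 14.5% in FCM and 19.1% in FCH, and 4, 4 and 3 members.

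Genes that supply, assist or act beside these enzymes were described in 11 lists by counts and medians, with no list test. Among the other glutathione peroxidases, GPX5 and GPX6 were listed at 0 in every library and GPX7 at no more than 0.27 TPM. GPX2, the gastrointestinal form, averaged 3.84 ± 1.09 TPM in FFA and 2.67 ± 1.20 TPM in NC, and GPX8, an endoplasmic reticulum relative, 1.74 ± 0.518 TPM in FFA and 3.24 ± 1.06 TPM in NC (SD, n = 3 each), neither called. None of the 6 peroxiredoxins, which also reduce peroxides, was called in FFA against NC (median 0.04). Neither was any of the 9 tested genes that insert selenocysteine (median -0.05).

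In FFA against NC, 3 of 14 tested other selenoproteins were called, all higher, where 7.37% of all genes were called and 5.47% higher. They were TXNRD1, the cytosolic thioredoxin reductase, at 1.09 (SE 0.15, adjusted p = 0.000366 by limma), SELENOS, a protein of endoplasmic reticulum quality control, at 0.56, and SELENOW at 0.43. Among genes that supply the peroxidases with reduced glutathione, 2 of 7 were called, both higher. The median of that list was 0.49, against 0.21 for the other selenoproteins and 0.06 over all tested genes. PGD, an NADPH-forming enzyme of the pentose phosphate pathway, was 1 of the 2 and rose by 0.61 (limma adjusted p = 0.00506). Changes over the 7 genes of that list ran from -0.09 to 0.74. PEX13, a docking protein of peroxisomal import, was the 1 of 9 import genes called, at 0.86, and the list median was -0.06. The calls of TXNRD1, SELENOS and PGD held with any single library left out, whereas SELENOW was lost when any single NC, FFA or FCH library or FCM replicate 2 was left out, and PEX13 without NC replicate 1, NC replicate 2 or FFA replicate 3.

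Of the 9 tested lipid peroxidation partners of GPX4, 2 were called higher and 1 lower in FFA against NC (list median 0.37). Over all tested genes 5.47% were called higher and 1.91% lower. The ferritin chain FTH1 averaged 23366 ± 3605 TPM in FFA and 7436 ± 719 TPM in NC (SD, n = 3 each), a log2 change of 1.65 (limma adjusted p = 3e-05). POR, which passes electrons to microsomal oxygenases, rose by 0.48, and DHODH, a mitochondrial pyrimidine enzyme that also reduces ubiquinone, fell by 0.51. Both of these were lost without FFA replicate 1, FFA replicate 3, FCH replicate 3 or any single NC library, and POR also without FCH replicate 1 or FCH replicate 2. In FFA against NC no gene of the copper, manganese or oxidant source lists was called, nor any of the 10 regulators. The medians of these lists were -0.16, 0.20, -0.01 and 0.22. Of the 14 genes listed as superoxide and peroxide sources only 4 passed the filter.

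Among the comparisons of C3R groups with FFA, 3 related genes were called, all in FCM and lower. They were 1 of 14 tested other selenoproteins, 1 of 8 copper supply genes and 1 of 9 lipid peroxidation partners of GPX4. No gene of the other lists was called there, and 1.9% of all tested genes were called in FCM. Over all tested genes the calls had the same lean, with 237 of 246 in FCM lower, against 1 called gene in FCL and 25 in FCH. TXNRD1 averaged 89.7 ± 3.47 TPM in FCM and 150.2 ± 19.6 TPM in FFA (log2 change -0.73, adjusted p = 0.0298 by limma). SLC31A1, the copper importer of the cell surface, averaged 9.27 ± 0.13 TPM in FCM and 14.9 ± 1.76 TPM in FFA (-0.63, adjusted p = 0.0343 by limma). ACSL4, which builds the polyunsaturated lipids that GPX4 guards, averaged 2.63 ± 0.669 TPM in FCM and 7.98 ± 2.07 TPM in FFA (-1.30, adjusted p = 0.0152 by limma). No gene of the 11 lists was called in FCL or FCH against FFA. All 3 FCM calls were lost without FFA replicate 1, FFA replicate 3 or FCM replicate 2, with limma adjusted p-values of up to 0.113 for ACSL4, 0.211 for SLC31A1 and 0.166 for TXNRD1. The calls of SLC31A1 and TXNRD1 were also lost without FCM replicate 1, FCM replicate 3 or FCH replicate 3, and that of SLC31A1 without NC replicate 2, FCH replicate 1 or FCH replicate 2. Of 12 alternatives other than leaving out a library, ACSL4 was called in 10, TXNRD1 in 8 and SLC31A1 in 7. The highest limma adjusted p-values there were 0.0768, 0.0912 and 0.150. The difference between doses was not tested.

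**Figure D4:**
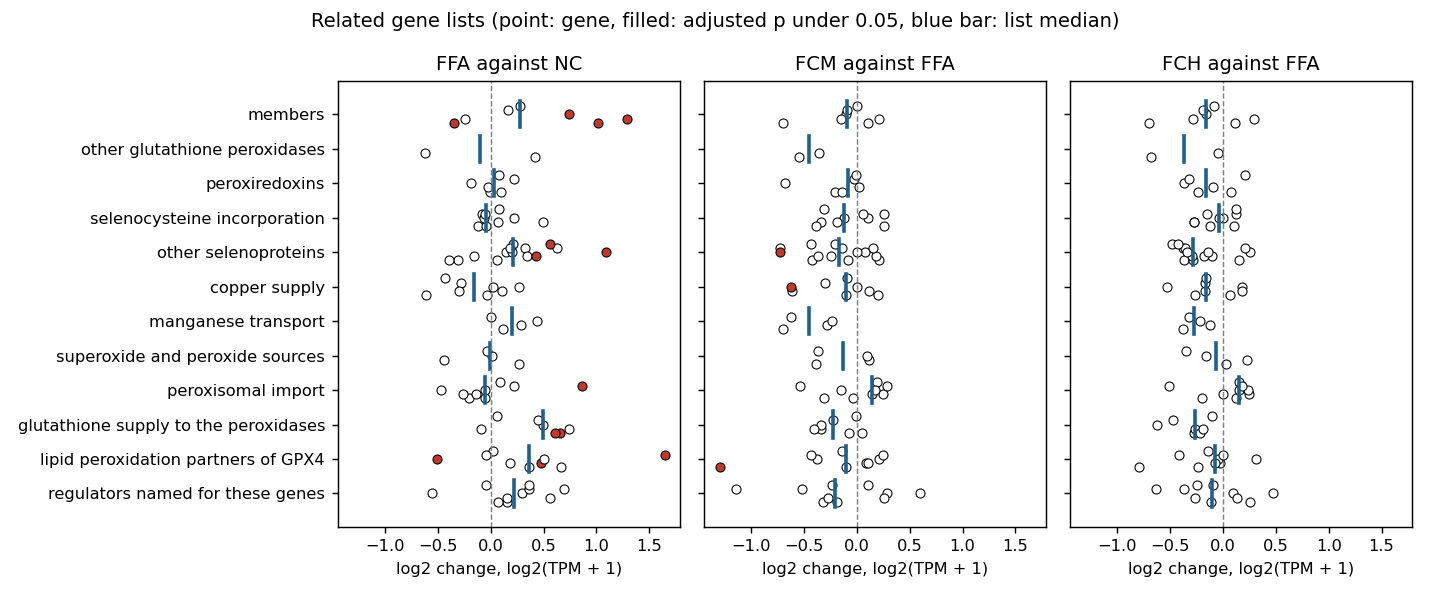
Change on the log2(TPM + 1) scale (horizontal axis) of the tested members and of 11 lists of related genes, in FFA against NC, FCM against FFA and FCH against FFA. Each point is a gene, filled where its adjusted p was under 0.05, and the blue bar is the list median. Filled points lie mostly right of 0 in FFA against NC, and the 3 filled points in FCM against FFA are TXNRD1, SLC31A1 and ACSL4.

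Likeness between genes was described over the 15 libraries, where differences between the groups enter every value. Pearson's r on log2(TPM + 1) was 0.96 between GPX1 and SOD2, 0.92 between GPX4 and GPX1, 0.64 between CAT and SOD2 and -0.78 between SOD2 and SOD1. Among all tested genes, those most like SOD2 were SSTR1 and LYPD3 (r = 0.98 each), most like GPX1 were PMM1 (0.97) and SOD2 (0.96), and most like GPX4 were TINCR (0.95) and RNF223 (0.93). CAT was most like LIMS1 (0.95) and STOM (0.94), SOD1 most like GAL and MT1E (0.89 each), CCS most like PMVK (0.91), and GPX3 most like ITPKA (0.84) and DEPP1 (0.78). Without the NC libraries, r was 0.84 and 0.87 for the genes named beside SOD2, 0.67 and 0.70 for those beside SOD1, and 0.94 and 0.92 for those beside CAT. Scaling also mattered for GPX4, where r with TINCR was 0.63 under quantile normalization and r with RNF223 was 0.69 under median-of-ratios rescaling. The libraries share groups and the scaling of TPM.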

How the data were processed

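Per the labels, poly(A) RNA was sequenced from 3 biological replicates in each of 5 groups. The deposited values are TPM for 63241 genes, which the authors made by HiSat2 alignment and RSEM, per the labels' design text. The sources used here give no tool version, annotation release, strand use or adjustment of FCH replicate 3. That adjustment was recovered from the values. Genes that reached 1 TPM in 3 or more libraries were fitted as log2(TPM + 1) in 1 model with a mean per group (limma 3.58.1, R 4.3.3, mean-variance trend), tested on simulated data. Tests were two-sided, with Benjamini-Hochberg adjustment over 12950 genes. Members and lists were chosen with earlier results of these data known. Named were every member, the 2 genes most like each and, per list and comparison, up to 4 called genes of smallest p. Some genes that this rule names are not reported here. Sequences are from RefSeq on GRCh38.p14, with windows for 7 members. The GC and length of transcripts, from GENCODE, covered 97.1% of the tested genes. Alternatives changed pseudocount, filter, scaling, adjustment, weights, terms and libraries.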

Additional observations from a re-analysis of the deposited data

How the results depend on the processing

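Members called were recounted under every alternative fit with limma. The share of all tested genes called also moved, from 2.31% to 19.9% in FFA against NC and from 0.00772% to 30.6% in FCM against FFA. It ran from 0.0154% to 26.2% in FCH against FFA, 2.75% to 36.9% in FCL against NC and 0% to 21.7% in the dose trend. Each highest share was with array weights, and the shares of most single fits are not reported here. In FFA against NC the count of 4 ranged from 3 to 5 with single libraries left out, and was 3 with a replicate block and 3 higher with 0 lower under median-of-ratios rescaling. In FCM against FFA it was 0, but 1 (CAT) with median-of-ratios rescaling, 1 with quantile normalization, 3 with array weights and 0 to 1 with single libraries left out. In FCH against FFA it was 0, but 1 (CAT) with each of median-of-ratios rescaling, quantile normalization, the compared groups alone and GC and length trends removed, and 5 with array weights. In FCL against NC the count of 3 was 5 with array weights and 2 to 4 in the other fits, where CAT or GPX1 was lost or SOD1 gained. In FCH against NC array weights gave 4 and the term for libraries 12 to 15 gave 0, against 2. That term nearly coincides with FCH, and with it the calls over all genes fell from 648 to 54. The dose trend had 0, but 2 (CAT and CCS) with array weights and 1 (CAT) with GC and length trends removed. Array weights also raised the genes called over the whole table in FCM against FFA to 3964 (30.6%), against 246. With them 26.2% of all tested genes were called in FCH against FFA and 36.9% in FCL against NC. The shares were 39.5% in FCH against NC and 21.7% in the dose trend, so the members' counts rose along with those of all genes. The cause was not tested. Correlations of the libraries' deviations from their group means showed no pairing by replicate number, and shared cultures or days were not tested. Of 30 same-number pairs of libraries from different groups, 1 correlated above 0.1 (range -0.350 to 0.154, median -0.036), and 0 of 15 libraries correlated best with its own number. The replicate block left 2 members called in FCM against NC, against 3, and took the SOD1 call from FFA against NC (adjusted p = 0.0754 by limma), along with those of SELENOW, POR and DHODH there and of TXNRD1 and SLC31A1 in FCM against FFA. The members' counts of the other comparisons did not move. Of 1519 member changes recomputed, 1439 kept direction and side of the threshold or differed in sign while uncalled in both fits, 40 lost and 40 gained a call, and 0 reversed while called. The share, ratio and sum of the members, with alternatives chosen after seeing the data, moved by less than 1 SD. Depth is unknown, so low members such as GPX3 and SOD3 have no counting limit.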
